A study of Mus musculus with 10 samples.

Results

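The 10 genes described here are Fos, Fosb, Jun, Junb, Egr1, Ier2, Ier3, Klf6, Myc and Dusp1, a set of immediate early response genes. They were taken by symbol from a table of 24411 genes, all 10 were found in it, and all 10 were among the 12609 genes that reached a level of 1 CPM (counts scaled to the size of the library) in at least 1 library and were tested. Liver RNA was sequenced from male C57Bl6/J mice that were 8 weeks old when treatment began and that were fed a high-fat diet throughout. One group of 5 (replicates 1 to 5) was injected with a control antisense oligonucleotide (ASO) that has no target, and the other group of 5 (replicates 6 to 10) with an ASO against Mboat7, both at 12.5 mg/kg for 20 weeks. An ASO is a short modified nucleic acid that directs the breakdown of a matching RNA, and Mboat7 encodes an acyltransferase that places arachidonic acid on lysophosphatidylinositol. According to the study such ASOs act mainly in liver, adipose tissue and cells of the reticuloendothelial system, more than one Mboat7 ASO was made, and the one given to these mice is not named in the labels. The labels name the tissue as normal liver for control ASO and as severe fatty liver for Mboat7 ASO, so that the oligonucleotide and the state of the tissue cannot be told apart.

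Immediate early genes are transcribed within minutes of a stimulus such as a growth factor, a cytokine, a stress or an injury, from factors already present in the cell and without new protein synthesis. Their RNAs are short-lived, and most encode transcription factors that pass the signal on. In liver they are known for their rapid induction after partial hepatectomy and for their sensitivity to how tissue is collected. FOS and JUN proteins pair to form the transcription factor AP-1. EGR1, KLF6 and MYC are further transcription factors, IER2 and IER3 are small proteins of the early response, and DUSP1 is a phosphatase that switches off the MAP kinases that induce many of these genes. The methods describe terminal anesthesia, blood collection and saline perfusion before tissues were frozen, and the sources used here do not state how long this took in each mouse.

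Total counts ran from 25153235 to 28791798 per library, so that a single count in the smallest of them equals 0.0398 CPM. Mboat7 itself fell from 40.8 ± 2.90 to 3.31 ± 1.01 CPM (SD, n = 5 per group), with every Mboat7 ASO library under every control (log2 fold change -3.63 ± 0.17, edgeR adjusted p = 1.29e-06). Markers of most non-parenchymal cell types were higher with Mboat7 ASO, where 21.2% of all genes tested rose. All 12 pan-leukocyte markers rose, with a summed level of 120.2 to 198 CPM in control ASO libraries and 187 to 496 CPM in Mboat7 ASO libraries. All 9 tested of 10 neutrophil markers rose (sums 1.80 to 3.90 against 5.82 to 55.3 CPM), though all but Csf3r of these reached 1 CPM, and so entered the test, only in Mboat7 ASO libraries. Markers of other cells also rose, namely 8 of 11 for Kupffer cells, 7 of 8 for endothelial cells and 6 of 8 for stellate cells. For Kupffer cells Cd163 (log2 fold change -0.25 ± 0.56), Marco (1.23 ± 0.75) and Timd4 (0.36 ± 0.54) did not pass the test. Nor did Stab2 (0.29 ± 0.13) for endothelial cells, or Acta2 (-0.13 ± 0.40) and Des (0.35 ± 0.19) for stellate cells. Cholangiocyte markers did not follow, as 1 of 5 tested rose, Spp1 (log2 fold change 1.18 ± 0.28), beside 21.2% of all genes. The median of that list was -0.19. Hepatocyte markers were abundant in every library. Their summed level was 126001 to 145085 CPM with control ASO and 78441 to 117576 CPM with Mboat7 ASO, and 4 of the 6 tested fell, beside 17.3% of all genes. In bulk RNA fewer cells of a type and less RNA per cell cannot be told apart, and the part of cell composition in the results that follow was not tested. Control ASO replicate 2 had the highest and Mboat7 ASO replicate 9 the lowest pan-leukocyte sum of its group, at 198 and 187 CPM, so that this sum crossed over. The Kupffer sums also overlapped (up to 306 CPM with control ASO, from 239 CPM with Mboat7 ASO). The neutrophil sums, the endothelial sums (up to 163, from 175 CPM) and the stellate sums (up to 255, from 277 CPM) did not. Results are therefore also given without libraries 2 and 9, an alternative chosen after such values were known.

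The 10 genes did not move as a block. Fosb, Fos and Klf6 rose with Mboat7 ASO, Ier2 fell, and the other 6 did not pass the test. Thus 3 of 10 rose, where 21.2% of all genes tested rose, and 1 of 10 fell, where 17.3% fell (edgeR quasi-likelihood test, Benjamini-Hochberg adjusted p under 0.05 over all genes). In either direction 4 of 10 passed, beside 38.5% of all genes, so the share of the set that changed was near the background. The median log2 fold change of the set was 0.31, and that of all genes tested was 0.0098. All levels below are CPM scaled by upper quartile, all fold changes are Mboat7 ASO over control ASO on the log2 scale with their standard error and n = 5 per group, and adjusted p-values come from the same edgeR test.

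**Figure D1:**
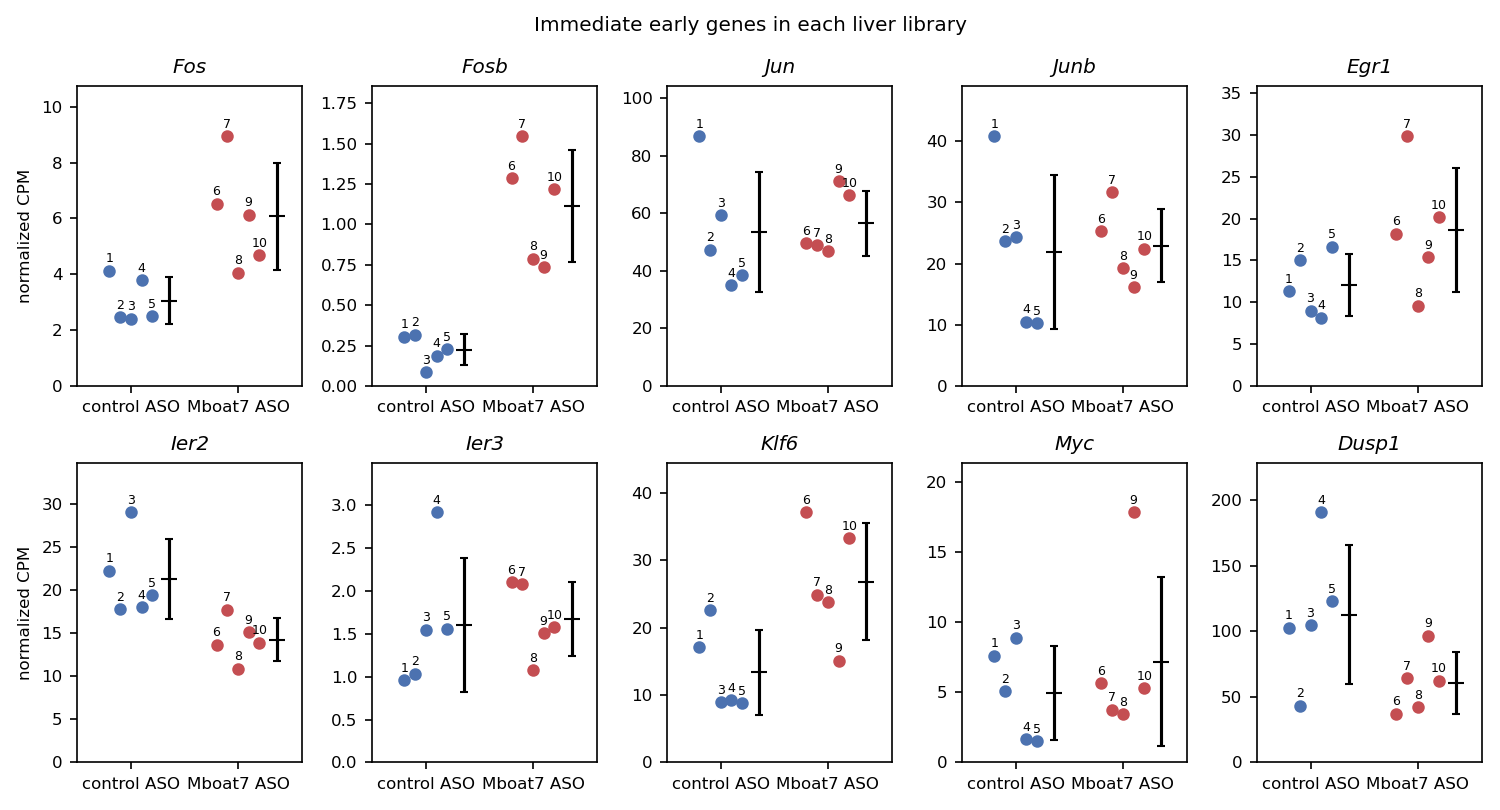
Normalized CPM of the 10 immediate early genes (vertical axis, starting at 0) in each library, numbered by replicate, with the group mean and SD as a bar. All Mboat7 ASO points for Fosb lie above all control ASO points, those for Ier2 lie just below them, and the groups overlap in the other 8 genes.

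Fosb showed the highest fold change of the set. It encodes a partner of JUN proteins in AP-1 that is known for its very low level in unstimulated tissue. Its level in control ASO libraries was 0.306, 0.318, 0.0859, 0.187 and 0.228 CPM in replicates 1 to 5, from 2 to 8 counts each. In Mboat7 ASO libraries it was 1.29, 1.55, 0.789, 0.734 and 1.22 CPM in replicates 6 to 10, from 20 to 41 counts each. The groups did not overlap, the lowest Mboat7 ASO library being above the highest control ASO library, as was the case for 10.5% of all genes tested. The level was 4.85-fold higher, or 2.28 ± 0.35 on the log2 scale (edgeR adjusted p = 0.00208). Fosb entered the test only through the Mboat7 ASO group, 3 of whose libraries reached 1 CPM while none of the control ASO libraries did, and with 1 CPM required in at least 5 libraries it was not tested. With no filter its log2 fold change was 2.27 (edgeR adjusted p = 0.00191). Without libraries 2 and 9 it was 2.54 (edgeR adjusted p = 0.00105), but these were its highest control and its lowest Mboat7 ASO library, so the difference widens by this choice.

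Fos, the founding member of its family, rose to a lesser degree from a higher level. It was at 4.13, 2.46, 2.41, 3.78 and 2.51 CPM in control ASO replicates 1 to 5. In Mboat7 ASO replicates 6 to 10 it was at 6.53, 8.95, 4.05, 6.13 and 4.67 CPM. Of the Mboat7 ASO libraries 4 were above every control, and replicate 8 lay just under control ASO replicate 1. Fos changed by 0.98 ± 0.24 on the log2 scale (edgeR adjusted p = 0.00908), or 1.98-fold, and this value ranged from 0.80 to 1.12 when single libraries were left out. The ratio of Fosb to Fos counts, formed after both values were seen, was 0.0758 ± 0.0366 in control ASO and 0.189 ± 0.0507 in Mboat7 ASO libraries (SD, n = 5 per group). As it restates 2 changes already given, it is read as a description only. The ranges overlapped, at 0.0357 to 0.129 and 0.120 to 0.261. Without libraries 2 and 9, the highest control and the lowest Mboat7 ASO library in this ratio, the means were 0.0626 and 0.206. Per kilobase of transcript Fosb stayed the lowest of the set in both groups, at 0.0595 CPM per kb with control ASO and 0.295 CPM per kb with Mboat7 ASO, beside 1.45 and 2.88 CPM per kb for Fos.

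Fos lies on chromosome 12, 85473890 to 85477273, plus strand, and Fosb on chromosome 7, 19302696 to 19310051, minus strand (GRCm38, GENCODE, each the longest transcript with a RefSeq match, 4 exons). The stretch upstream of the transcription start is shown for both, as the pair that rose together, and for Dusp1, the gene with the lowest fold change of the set, which lies on chromosome 17, 26505590 to 26508519, minus strand, with 4 exons. The sequences run 5′ to 3′ on the gene's strand (RefSeq promoter windows, GRCm38.p6), from 140 to 21 bases before the start for Fos (chromosome 12, 85473750 to 85473869) and Fosb (chromosome 7, 19310066 to 19310185), and from 210 to 91 bases before it for Dusp1 (chromosome 17, 26508563 to 26508682). Start is the RefSeq transcription start, which for Fosb and Dusp1 differs from the start of the GENCODE transcript given above, and all distances are counted from the RefSeq start. Capitals mark TGACG, the core of the cAMP response element, read on either strand, or the full element TGACGTCA, to which CREB and ATF proteins are known to bind.
Fos: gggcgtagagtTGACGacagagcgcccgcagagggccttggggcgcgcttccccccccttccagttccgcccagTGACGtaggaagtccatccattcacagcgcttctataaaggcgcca
Fosb: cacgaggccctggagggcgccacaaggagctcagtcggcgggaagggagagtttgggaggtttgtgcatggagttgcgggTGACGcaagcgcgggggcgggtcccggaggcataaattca
Dusp1: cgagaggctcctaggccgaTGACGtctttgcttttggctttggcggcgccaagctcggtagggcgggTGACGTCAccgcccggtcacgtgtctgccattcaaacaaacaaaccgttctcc

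In these windows Fos held 2 TGACG cores, beginning 129 and 66 bases before the start, Fosb held 1 at 60 bases, and Dusp1 held 1 core at 191 bases and the full element at 143 bases. Promoter windows of 300 bases (250 before the start and 50 after it) were found for 7 of the 10 genes, and 4 of the 7 (Fos, Fosb, Junb and Dusp1) held TGACG or its reverse complement, as did 20.8% of all 32851 windows. The full element TGACGTCA was in 1 of the 7 and in 1.79% of all windows. The AP-1 site TGAGTCA, read on both strands, was in none of the 7 and in 5.20% of all windows, and the CArG box, the site of serum response factor, was in none of the 7 and in 1.63% of all. As the windows reach 250 bases before the start, a site further upstream would not be seen, and these absences hold for the windows only. The TATA box sequence TATAAA was in 2 of the 7 (Fos and Junb), at 13.6% of all windows, and the EGR site GCGGGGGCG was in 1 of the 7 (Fosb), at 2.91% of all. In Fos TATAAA began 33 bases before the start, while in Junb it began at the start itself. The core occurred in genes that rose and in Dusp1 and Junb alike, and a match is a description of letters only. Egr1, Ier2 and Myc had no window in the table.

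Jun and Junb, which encode the partners of FOS proteins, did not pass the test. Jun (chromosome 4, 95049034 to 95052222, minus strand, 1 exon) was at 86.9, 47.3, 59.4, 35.1 and 38.5 CPM in control ASO replicates 1 to 5. Mboat7 ASO replicates 6 to 10 had 49.6, 48.9, 46.8, 71.2 and 66.3 CPM. All 5 Mboat7 ASO libraries lay inside the control range, and the log2 fold change was 0.08 ± 0.23 with a 95% interval of -0.43 to 0.59 (edgeR adjusted p = 0.798). Jun overlaps Junos, an antisense transcript on the other strand that has no row in the table. The sources used here do not state the strand setting of the counting, and reads of these 2 transcripts cannot be told apart.

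Junb (chromosome 8, 84976910 to 84978718, minus strand, 1 exon) was at 40.8, 23.6, 24.4, 10.5 and 10.3 CPM in control ASO replicates 1 to 5. Mboat7 ASO replicates 6 to 10 had 25.2, 31.7, 19.2, 16.1 and 22.4 CPM. The control ASO libraries alone spanned a 3.96-fold range, which enclosed every Mboat7 ASO library, and the log2 fold change was 0.07 ± 0.35 (95% interval -0.70 to 0.83, edgeR adjusted p = 0.893). The ratio of Junb to Jun counts was 0.389 ± 0.102 and 0.427 ± 0.161 (SD, n = 5 per group), and that of Fos to Jun counts was 0.0626 ± 0.0268 and 0.112 ± 0.0460. The groups overlapped in both ratios, which are given as a description.

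**Figure D2:**
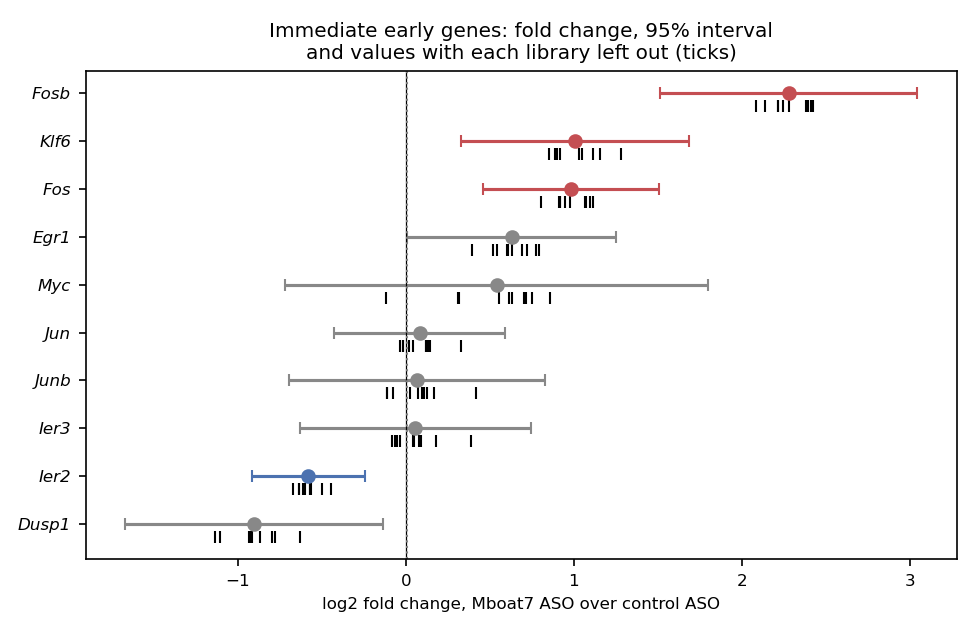
Log2 fold change of each gene, Mboat7 ASO over control ASO (horizontal axis), with its 95% interval from the edgeR fit, red where it rose, blue where it fell and grey where it did not pass. Black ticks under each gene are the values with 1 library left out, which stay between 2.09 and 2.43 for Fosb and reach from -0.12 to 0.86 for Myc, and the dotted line is the median of all genes, 0.0098.

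Klf6, a zinc finger factor of the Krüppel-like family that is induced in injured liver, rose to about the same degree as Fos. It lies on chromosome 13, 5861482 to 5870394, plus strand, with 4 exons. Its level was 17.1, 22.6, 8.98, 9.23 and 8.78 CPM in control ASO replicates 1 to 5. In Mboat7 ASO replicates 6 to 10 it was 37.1, 24.8, 23.7, 15.1 and 33.3 CPM. Of the Mboat7 ASO libraries 4 were above every control, and replicate 9 lay inside the control range. On the log2 scale Klf6 changed by 1.01 ± 0.31 (edgeR adjusted p = 0.0252), or 2.01-fold. The highest control was replicate 2 and the lowest Mboat7 ASO library was replicate 9, as for the pan-leukocyte sum. That sum was also low in Mboat7 ASO replicate 10, at 217 CPM, where Klf6 was at 33.3 CPM. Without libraries 2 and 9 the log2 fold change of Klf6 was 1.43 (edgeR adjusted p = 0.00165). Leaving out these 2 libraries widens the difference by construction. The call was lost when any one of libraries 3, 4 and 5 (control ASO) and 6 and 10 (Mboat7 ASO) was left out (edgeR adjusted p 0.0562 to 0.0626, log2 fold change 0.85 to 0.92).

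Egr1, a zinc finger factor induced through serum response factor, was at 11.3, 15.0, 8.98, 8.15 and 16.7 CPM in control ASO replicates 1 to 5. In Mboat7 ASO replicates 6 to 10 it was at 18.2, 29.9, 9.57, 15.4 and 20.1 CPM. Of the Mboat7 ASO libraries 3 were above every control and 2 lay among the controls. The log2 fold change of 0.63 ± 0.28 did not pass (95% interval 0.01 to 1.25, unadjusted p = 0.0468, edgeR adjusted p = 0.0958). It passed without Mboat7 ASO replicate 8, at 0.80 (edgeR adjusted p = 0.0326), and with no normalization factor, at 0.78 (edgeR adjusted p = 0.0410). The gene lies on chromosome 18, 34861207 to 34864956, plus strand.

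Myc, the growth-promoting transcription factor that drives ribosome production and cell cycle entry, was the most variable of the 10. It lies on chromosome 15, 61985391 to 61990350, plus strand, with 3 exons. Control ASO replicates 1 to 5 had 7.61, 5.09, 8.89, 1.68 and 1.52 CPM. Among Mboat7 ASO replicates 6 to 10 it was at 5.65, 3.78, 3.44, 17.8 and 5.30 CPM. Replicate 9 was above every other library and the other 4 Mboat7 ASO libraries lay within the control range. Myc had a log2 fold change of 0.54 ± 0.57 (95% interval -0.72 to 1.80, edgeR adjusted p = 0.476), and without replicate 9 it was -0.12 (edgeR adjusted p = 0.865).

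Ier2 was the 1 gene of the set that fell. It encodes a small nuclear protein of the early response and lies on chromosome 8, 84661331 to 84662852, minus strand, as a single exon. Its level was 22.3, 17.8, 29.0, 18.0 and 19.4 CPM in control ASO replicates 1 to 5. In Mboat7 ASO replicates 6 to 10 it was 13.7, 17.7, 10.9, 15.1 and 13.9 CPM. The groups did not overlap, by a margin of 17.7 against 17.8 CPM between their nearest libraries, and 10.7% of all genes tested were separated in this direction (21.2% in either direction). This separation depends on the upper-quartile scaling. In CPM without it, Mboat7 ASO replicate 7 (17.9) lay above control ASO replicates 2 (17.0) and 4 (17.3). Its log2 fold change was -0.58 ± 0.15 (edgeR adjusted p = 0.0139), a level 0.669 times that of the controls. Ier2 had the smallest spread within groups of the 10 genes. Its call was kept in 20 alternative fits, though its fold is under 2, with a log2 fold change between -0.67 and -0.42, the latter with no normalization factor. Of the 6 hepatocyte markers tested, 4 (Alb, Apoa1, Cyp2e1 and Ttr) fell, beside 17.3% of all genes, and Cps1 (-0.11 ± 0.18) and Hnf4a (0.053 ± 0.13) did not pass. Any link between these markers and Ier2 was not tested.

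Ier3, which encodes a short-lived protein that modulates cell survival, was low in both groups. It was at 0.956, 1.033, 1.55, 2.92 and 1.56 CPM in control ASO replicates 1 to 5. Mboat7 ASO replicates 6 to 10 had 2.10, 2.08, 1.08, 1.505 and 1.58 CPM. All Mboat7 ASO libraries lay within the control range, and the log2 fold change was 0.06 ± 0.31 (95% interval -0.63 to 0.75, edgeR adjusted p = 0.899). It lies on chromosome 17, 35821684 to 35822923, plus strand, with 2 exons.

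Dusp1, the MAP kinase phosphatase, had the highest level per length of the set in the control ASO group. It was at 102.6, 43.1, 104.5, 190.4 and 122.8 CPM in control ASO replicates 1 to 5. In Mboat7 ASO replicates 6 to 10 it was at 37.2, 64.0, 41.9, 96.5 and 62.2 CPM. Control ASO replicate 2 lay among the Mboat7 ASO libraries, 4 controls were above every Mboat7 ASO library, and Mboat7 ASO replicate 9 was nearest to them. The log2 fold change of -0.90 ± 0.35 did not pass (95% interval -1.67 to -0.13, edgeR adjusted p = 0.0611). It was -1.11 without control ASO replicate 2 (edgeR adjusted p = 0.00944), -1.14 without Mboat7 ASO replicate 9 (edgeR adjusted p = 0.0282) and -1.34 without both (edgeR adjusted p = 0.00227). For Dusp1 these were the lowest control and the highest Mboat7 ASO library. Leaving them out therefore widens the difference by construction, and these 3 values are no added evidence of a fall. Without libraries 2 and 9, Fosb, Fos and Klf6 rose, 3 of the 10 genes as before, beside 24.1% of all genes. In that setting Ier2 and Dusp1 fell, 2 of the 10, beside 17.5% of all genes.

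**Figure D3:**
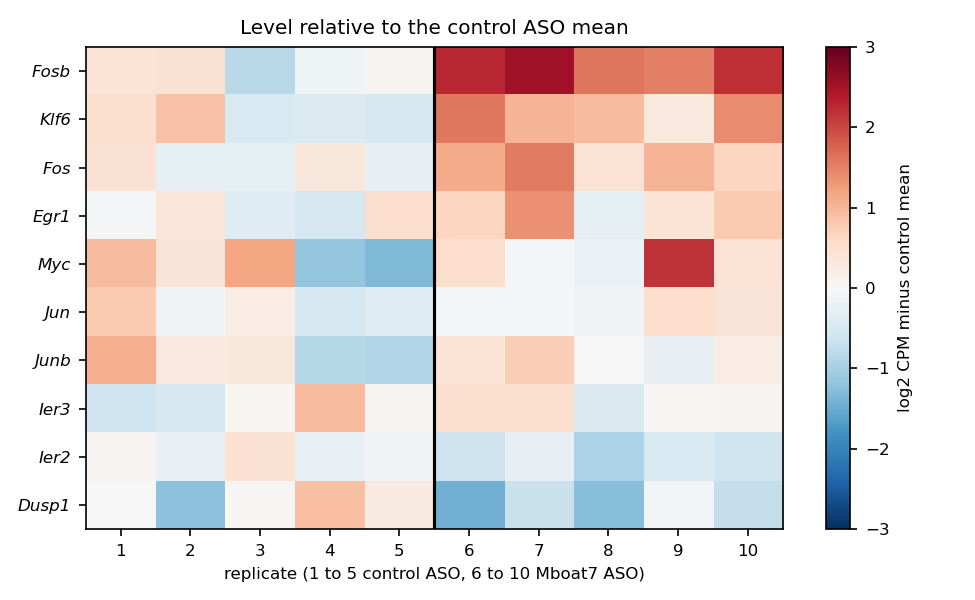
Log2 CPM of each gene (rows, ordered by fold change) in each library (columns, control ASO on the left and Mboat7 ASO on the right), with the mean of the control ASO libraries subtracted. Fosb is red in all 5 Mboat7 ASO libraries and Ier2 blue in all 5, while Jun, Junb, Myc and Ier3 vary as much within the groups as between them.

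Per kilobase of transcript, the level in control ASO livers ran in the order Dusp1 (56.6 ± 26.5 CPM per kb), Jun (16.8 ± 6.56), Ier2 (14.0 ± 3.06), Junb (12.1 ± 6.95), Egr1 (3.96 ± 1.22), Klf6 (3.16 ± 1.48), Myc (2.12 ± 1.44), Fos (1.45 ± 0.393), Ier3 (1.42 ± 0.695) and Fosb (0.0595 ± 0.0251, SD, n = 5 in each case). Neighbours in this order overlapped in their ranges over the 5 control ASO libraries, with 2 exceptions. Junb (5.70 to 22.6 CPM per kb) lay just above Egr1 (2.68 to 5.48), and Ier3 (0.845 to 2.58) lay well above Fosb (0.0227 to 0.0841). With Mboat7 ASO, Klf6 (6.34 ± 2.04 CPM per kb) and Egr1 (6.14 ± 2.45) overlapped in their level per length, as did Myc (3.08 ± 2.58) and Fos (2.88 ± 0.904). Dusp1 was at 30.3 ± 11.8 and Jun at 17.7 ± 3.55 CPM per kb in that group, again with overlap.

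All 10 genes varied more between livers of the same group than the median gene. The SD of log2 CPM within groups was 1.07 for Myc, 0.67 for Dusp1, 0.66 for Junb, 0.57 for Klf6, 0.53 for Egr1, 0.51 for Ier3, 0.48 for Fosb, 0.42 for Jun, 0.41 for Fos and 0.27 for Ier2, beside a median of 0.16 over all genes tested. Of the 10, 5 (Myc, Dusp1, Junb, Klf6 and Egr1) were above the 90th percentile of all genes, which was 0.52. Myc was at percentile 99.0 and Ier2 at percentile 72.4. The spread of all genes was larger at low levels, and Fosb and Ier3 lay among the bulk of genes of their level in the plot of SD against level. Within the control ASO group the highest library exceeded the lowest by 5.85-fold for Myc, 4.42-fold for Dusp1 and 3.96-fold for Junb. Within the Mboat7 ASO group the same ranges were 5.18-fold, 2.59-fold and 1.97-fold.

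**Figure D4:**
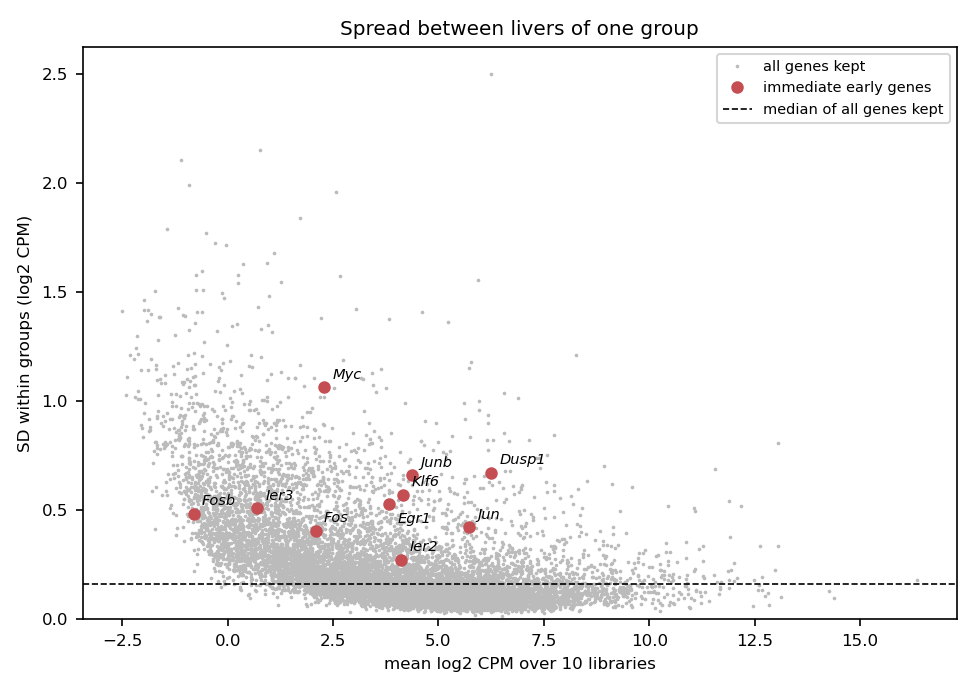
SD of log2 CPM within groups (vertical axis) against mean log2 CPM over the 10 libraries (horizontal axis), with 1 point per gene tested, the 10 immediate early genes in red and the median of all genes, 0.16, as a dashed line. All 10 lie above the line, Myc at 1.07 and Ier2 at 0.27 being the extremes.

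The genes did not vary in step from liver to liver. After each group's mean was subtracted, Pearson correlations over the 10 libraries, which share the group means and scaling and are given as a description, ran from -0.78 to 0.83 over the 45 pairs, with a median of 0.16. They were positive in 29 pairs and negative in 16. The closest pair was Jun with Myc (r = 0.83), both of which were lowest in control ASO replicates 4 and 5 and highest among Mboat7 ASO libraries in replicate 9. Fosb followed Klf6 (0.72) and Egr1 (0.71), and Jun followed Junb (0.66). Dusp1 ran opposite to Klf6 (-0.78), with control ASO replicate 2 and Mboat7 ASO replicate 6 at the lowest Dusp1 and the highest Klf6 of their groups. Among 12449 genes outside all lists used here, those whose deviations were most like the mean of the 10 genes were Dhrs13 (r = 0.96), Ubox5 (0.94), Gm9776 (0.94), Ric8 (0.93) and Zfp637 (0.93) over the 10 libraries. As the highest of 12449 correlations over only 10 libraries, these values are raised by the selection itself, and no shared control is read from them. The log2 fold changes of these genes lay between -0.33 and 0.10, and of the 5 Zfp637 fell (-0.33, edgeR adjusted p = 0.00495) while the others did not pass.

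Related genes were read in 7 further lists with 98 genes, of which 91 were tested. Of these, 19 rose (20.9%, beside 21.2% of all genes) and 9 fell (9.89%, beside 17.3%), with a median log2 fold change of 0.12. With no normalization factor, which shifts the median of all genes by 0.16, these totals were 39 and 3, beside 37.1% and 6.10% of all genes in the same setting. The total that rose was 12 without control ASO replicate 3. Of those that rose, Batf, Batf3, Nr4a3, Dusp2 and Hspa1a reached 1 CPM, and so entered the test, only in Mboat7 ASO libraries. With 1 CPM required in at least 5 libraries the totals were 14 and 9, beside 20% and 18.7% of all genes in that setting.

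Among the other AP-1 genes, 5 of 10 tested rose and 1 fell, beside 21.2% and 17.3% of all genes. Atf3, a stress-induced repressor that pairs with JUN proteins, rose by 1.47 ± 0.26 (edgeR adjusted p = 0.00310), from at most 4.01 CPM in control ASO libraries to 5.14 to 11.2 CPM in Mboat7 ASO libraries, without overlap. Batf (2.86 ± 0.61, adjusted p = 0.00557) and Batf3 (2.46 ± 0.53, adjusted p = 0.00594), AP-1 factors of leukocytes, rose as well and reached 1 CPM only in Mboat7 ASO libraries. In Batf the range with Mboat7 ASO was 0.296 to 2.86 CPM, and its call was lost with limma-voom, with or without quality weights. Jdp2 (1.35 ± 0.43) and Fosl2 (0.31 ± 0.10), another relative of Fos, rose. Each of their calls was lost when any one of 6 libraries was left out, and 3 of the list rose without library 3 or 5 of the controls or library 6, 7 or 8 of the Mboat7 ASO group. Mafg (-0.32 ± 0.08), a small MAF protein, fell, though not with no normalization factor. Jund was at -0.29 ± 0.18 (adjusted p = 0.224) and Batf2 at 0.58 ± 0.39 (adjusted p = 0.247).

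Of the 6 EGR and NR4A genes tested 2 rose and 0 fell, beside 21.2% and 17.3% of all genes. Those that rose were Nr4a3 (2.20 ± 0.58, edgeR adjusted p = 0.0135), an orphan nuclear receptor of the early response, and Nab1 (0.21 ± 0.06, adjusted p = 0.0248), a corepressor of EGR proteins. The call of Nab1 was lost when library 1, 3, 5 or 7 was left out. Nr4a3 summed to 18 counts with control ASO and 96 with Mboat7 ASO, and 1 Mboat7 ASO library alone carried it past the filter. Its relatives Nr4a1 (0.96 ± 0.36, adjusted p = 0.0527) and Nr4a2 (0.77 ± 0.29, adjusted p = 0.0572) did not pass. In this list the number that rose was 4 with DESeq2 or the likelihood ratio test, 4 with no normalization factor, 4 when library 2 was left out, and 1 when library 1, 3, 5 or 6 was left out.

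**Figure D5:**
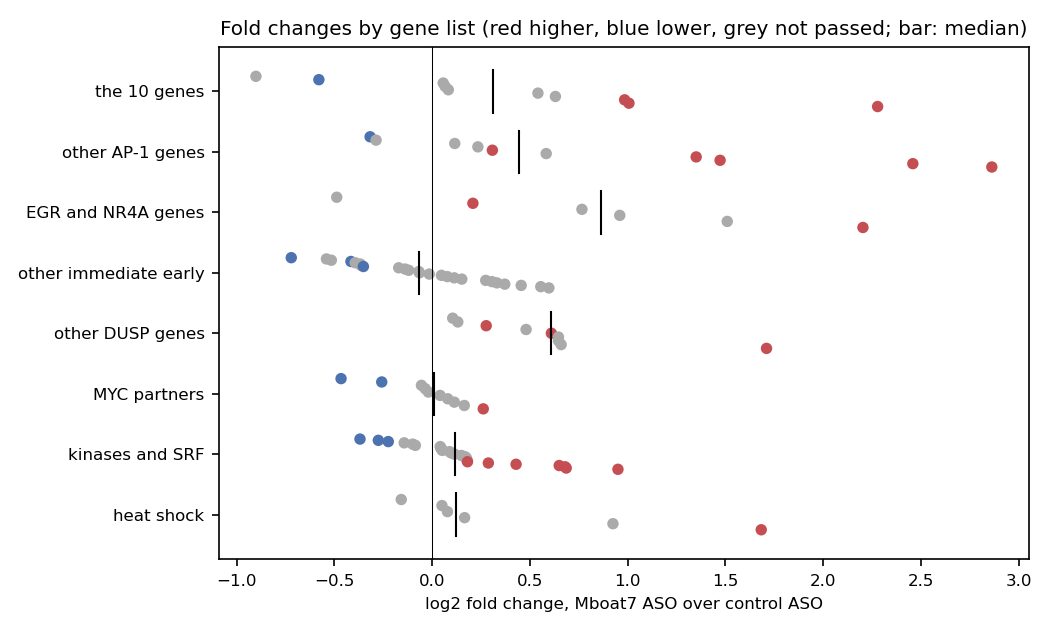
Log2 fold change, Mboat7 ASO over control ASO (horizontal axis), of each gene tested in the set of 10 and in 7 related lists (rows), red where it rose, blue where it fell and grey where it did not pass, with the median of each list as a bar. The medians run from -0.06 for other immediate early genes to 0.86 for the EGR and NR4A genes, and each list holds grey points. The EGR and NR4A median includes genes that reached 1 CPM only in Mboat7 ASO libraries.

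The broader list of other immediate early genes did not follow Fos and Fosb. Of 25 tested, 3 fell and 0 rose (edgeR, with 0 higher at an unadjusted p under 0.05 and 0 higher by DESeq2), beside 17.3% and 21.2% of all genes, and the median was -0.06. With no normalization factor 3 rose and 1 fell, beside 37.1% and 6.10% of all genes. Csrnp1 (-0.72 ± 0.18, edgeR adjusted p = 0.0102), a nuclear protein known in human cells as a target of AXIN1, Plk3 (-0.42 ± 0.14, adjusted p = 0.0415), a polo-like kinase, and Zfp36 (-0.35 ± 0.13, adjusted p = 0.0487), which binds AU-rich elements and hastens the decay of early response RNAs, were those that fell. Klf10 (-0.54 ± 0.22, adjusted p = 0.0665) and Sgk1 (0.56 ± 0.26, adjusted p = 0.104) did not pass. The calls of Plk3 and Zfp36 were each lost in several alternatives, and 5 of the list fell when library 2 was left out, beside 1 when library 1, 3, 5, 6 or 8 was left out.

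Where 21.2% of all genes rose, 3 of the 9 other dual-specificity phosphatases tested did so, with Dusp1 at -0.90 ± 0.35. They were Dusp7 (0.61 ± 0.17, edgeR adjusted p = 0.0183), Dusp16 (0.28 ± 0.08, adjusted p = 0.0212) and Dusp2 (1.71 ± 0.61, adjusted p = 0.0458), the last of which is known from activated leukocytes and reached 1 CPM only in Mboat7 ASO libraries. The call of Dusp2 was kept in 10 of the 19 alternatives that tested it, and was lost with limma-voom and with library 1, 3, 4, 5, 6, 7 or 8 left out, and that of Dusp16 without library 1 or 3. Dusp10 (0.48 ± 0.18, adjusted p = 0.0528) and Dusp4 (0.66 ± 0.26, adjusted p = 0.0672) did not pass. The number that rose was 1 without library 3, 5 without library 2 and 5 with no normalization factor.

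Of 10 genes of the MYC network tested, Mlxipl (-0.47 ± 0.10, edgeR adjusted p = 0.00540), which encodes the glucose-responsive factor ChREBP, and its partner Mlx (-0.26 ± 0.07, adjusted p = 0.0134) fell, and Mga (0.26 ± 0.08, adjusted p = 0.0307) rose. These are 20% lower and 10% higher, beside 17.3% and 21.2% of all genes. The call of Mlx was lost with no normalization factor and that of Mga when library 3, 4, 6, 8 or 10 was left out, while 2 rose without library 2. Mxd4 (0.08 ± 0.05, adjusted p = 0.224) and Mycl (0.11 ± 0.14, adjusted p = 0.542) did not pass.

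Of 25 kinases, RAS proteins and transcription factors upstream of the early response, 7 rose and 3 fell. These are 28% and 12%, beside 21.2% and 17.3% of all genes. Those of lowest p were Mkl2 (0.68 ± 0.07), a coactivator of serum response factor, Elk3 (0.95 ± 0.14) and Elk4 (0.65 ± 0.12), ternary complex factors that join it on DNA, and Map2k2 (-0.37 ± 0.06) and Hras (-0.28 ± 0.06) of the RAS to MAP kinase cascade, each with an adjusted p no higher than 0.00496 in edgeR. Srf itself, chosen after its value was seen, was at -0.22 ± 0.05 (adjusted p = 0.00894), and its fall and that of Hras did not pass with no normalization factor. Map2k7 (-0.14 ± 0.06, adjusted p = 0.0699), a kinase of the stress-activated cascade, did not pass. With no normalization factor, where 37.1% of all genes rose and 6.10% fell, 17 of the 25 rose and 1 fell.

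Of 6 heat shock genes 1 rose, where 21.2% of all genes did. The gene was Hspa1a (1.68 ± 0.51, edgeR adjusted p = 0.0235), an inducible chaperone that summed to 49 counts with control ASO and 177 with Mboat7 ASO. It reached 1 CPM, and so entered the test, only in 2 Mboat7 ASO libraries. Hspa1b was at 0.92 ± 0.39 (adjusted p = 0.0771) and Hsp90aa1 at 0.17 ± 0.18 (adjusted p = 0.489). Hspa1a and Hspa1b are near-identical copies, so that the separate count of each is uncertain. The call of Hspa1a was lost without library 1 or 4, without libraries 2 and 9, and with limma-voom, while 2 of the list rose without library 5. The summed level of the list was 119 to 131 CPM in control ASO libraries and 99.7 to 198 CPM in Mboat7 ASO libraries, highest in replicate 8, where Fos, Jun, Egr1, Ier2, Ier3 and Myc were at their lowest of the Mboat7 ASO group.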

How the data were processed

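Libraries of liver mRNA (directional kit, 50 bp single-end reads) were trimmed by the authors with Trim Galore 0.3.3, checked with FastQC 0.11.3 and aligned to mm10 with STAR, whose gene counting mode was used. The deposited values are raw counts per gene symbol. Of the value columns, 10 matched no label of these samples and were not used. Members, lists and tests were chosen with earlier results of these data known.

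Counts were scaled by upper quartile and tested with edgeR 4.0.16 (quasi-likelihood, R 4.3.3, no covariate, Benjamini-Hochberg 0.05 over 12609 genes reaching 1 CPM in a library); the standard error is the log2 fold change over the root of F. The test was checked on simulated data. Log2 CPM used a prior count of 2. Named genes were the 10, Mboat7, genes of each list that passed (beyond 5, those of lowest p), the next 2, and the 5 most alike. One gene that this rule names is not reported here. The hepatocyte marker listed as Tf matched no row. Alternatives changed normalization, filter, test (DESeq2 1.42.0, limma 3.58.1), threshold or libraries. Libraries within a group differed far beyond sampling noise (chi-square per degree of freedom at least 21.1). Separate mice are not stated outright for every library in the labels, so the p-values speak for the spread among these libraries.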

Additional observations from a re-analysis of the deposited data

Results flagged for a closer look

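Myc in Mboat7 ASO replicate 9 was at 17.8 CPM, and the nearest other library of its group was at 5.65 CPM, a gap of 0.846 of the group's range where 0.71 is Dixon's limit for 5 samples. Both groups of all 10 genes (20 sets of libraries) were read in this way, and chance is expected to mark about 1 set in 20 (0.05). In the same library Jun (71.2 CPM) and Dusp1 (96.5 CPM) were also the highest of the Mboat7 ASO group, Fosb (0.734 CPM) and Klf6 (15.1 CPM) were the lowest, and the pan-leukocyte sum was the lowest of the group, at 187 CPM.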

How the results depend on the processing

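Over 20 alternative fits Fos and Ier2 kept their direction and call, Fosb did so in the 19 that tested it, and Klf6 kept its call in 15. With a fold change over 2 also required, Fos and Ier2 no longer passed. The number of the 10 genes that rose was 3, and 2 to 4 over the alternatives, where 6.43% to 37.1% of all genes rose. The number that fell was 1. It was 2 with the likelihood ratio test (16.5% of all genes), 2 with limma-voom and quality weights (18%) and 2 without libraries 2 and 9 (17.5%). It was 0 with a fold change over 2 (0.666%), and 1 to 2 with single libraries left out (12.6% to 18.4%). For the related lists together, 39 rose and 3 fell with no normalization factor (37.1% and 6.10% of all genes), 7 and 0 with a fold change over 2 (6.43% and 0.666%), and 12 to 26 and 7 to 11 with single libraries left out. Jun, Junb, Ier3 and Myc, which did not pass, changed sign. With single libraries left out, the log2 fold change ran from -0.037 to 0.33 for Jun, -0.11 to 0.42 for Junb, -0.082 to 0.39 for Ier3 and -0.12 to 0.86 for Myc. Without libraries 2 and 9 it was -0.054 for Jun, -0.031 for Ier3 and -0.11 for Myc, and with limma-voom and quality weights it was -0.055 for Ier3. Dusp1 passed in 5 of 20 alternatives and Egr1 in 2. By list, the number that rose ran over the alternatives from 3 to 6 for other AP-1 genes, 1 to 5 for EGR and NR4A genes, 1 to 5 for dual-specificity phosphatases, 0 to 3 for MYC partners and 0 to 2 for heat shock genes. The cause of these changes was not tested. No paired analysis was possible because the groups share no replicate number. Fosb, with 2 to 8 counts per control ASO library, is limited by depth.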
